A study of Mus musculus with 69 samples.

Results

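The 10 genes described here, Fos, Fosb, Jun, Junb, Jund, Egr1, Egr2, Nr4a1, Dusp1 and Dusp2, are immediate early genes of mouse T cells and the phosphatases induced with them. They were chosen by name, with earlier results of these data known, and not by a limit on a measured value. They are 10 of the 24309 genes counted in the CD8+ and CD4+ T cell tables and of the 24311 counted in the retroviral table. All 10 were found in each table. RNA-seq counts were compared between mice with 3 sets of STAT5 alleles, which were wild type (WT, Stat5a+/+ Stat5b+/+), AAB (Stat5a-/- Stat5b+/-, so 1 Stat5b allele is left) and BBA (Stat5a+/- Stat5b-/-, so 1 Stat5a allele is left). The deletions are carried in the germline, so every cell of the animal had them, and the mice were 8 to 16 weeks old. Naive (Tnv, CD44 low CD62L high), central memory (Tcm, CD44 high CD62L high) and effector memory (Tem, CD44 high CD62L low) CD8+ cells, and naive CD4+ cells, were sorted from pooled lymph nodes and spleen with 20K to 100K cells per library. IL-7 was given to naive and Tcm cells and IL-15 to naive, Tcm and Tem cells, at 10 ng/ml. Each CD8+ condition had 2 libraries per genotype (48 in all), and the CD4+ groups had 2 or 3 (15 in all). In a separate experiment AAB cells labelled as CD8+ were activated through CD3 and CD28 and received a retrovirus with a constitutively active STAT5A (CA-STAT5A) or an empty vector, with 2 libraries each.

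The controls are labelled no cytokine (NC). The labels describe every sorted population as cultured for 12 to 16 hours. Among the grouped sorted libraries, however, these hours were recorded only for the cytokine libraries and not for the NC libraries. The study's methods give 12 to 18 hours for the cytokine cultures and describe the NC cells as taken directly after sorting. Each comparison of a cytokine with NC may therefore hold the effect of the culture as well as that of the cytokine, and the 2 cannot be told apart. Libraries differed in the pattern of Xist and Y-linked genes: all 6 naive NC and all 6 naive IL-15 CD8+ libraries showed Xist, all 6 naive IL-7 libraries showed Y-linked genes, and Tcm IL-7 had 4 libraries with the Y-linked pattern and 2 with Xist, whereas Tcm NC, Tcm IL-15 and all Tem libraries showed Xist and all CD4+ libraries showed Y-linked genes. In naive CD8+ cells, IL-7 and the sex of the animals thus cannot be told apart. The same holds in WT Tcm cells, where replicates 1 and 2 with IL-7 both showed Y-linked genes. In AAB and BBA Tcm cells with IL-7, replicate 1 showed Xist and replicate 2 Y-linked genes. The genotypes of Tcm cells with IL-7 thus also differed in this pattern. The comparisons of IL-15 with NC and those of CD4+ cells were matched in it. Reads assigned to genes, in M (mega), ran from 5.93 to 25.6 M per CD8+ library, from 6.71 to 34.1 M per CD4+ library and from 11.0 to 16.5 M per retroviral library. Levels are given as CPM, the counts of a gene per M counts of its library after TMM scaling. Of the targeted genes, Stat5a separated AAB in the CD8+ libraries, at 32.2 to 110 CPM in WT, 31.1 to 51.6 CPM in BBA and 0.98 to 5.13 CPM in AAB. Stat5b counts remained in BBA, at 49.0 to 87.4 CPM, below the 167 to 360 CPM of WT but overlapping the 80.5 to 132 CPM of AAB. The summed CD8 lineage markers Cd8a and Cd8b1 lay at 1243 to 3300 CPM in the CD8+ table. By Cd4, 1 library stood apart: WT naive IL-15 replicate 2 held 242 CPM against 6.76 CPM in replicate 1. Markers of other cells varied too. In naive CD8+ NC, IL-7 and IL-15 libraries, 7 myeloid markers summed to 32.0 to 159, 3.03 to 28.7 and 9.45 to 96.5 CPM. In Tcm cells they summed to 39.1 to 167, 64.5 to 706 and 17.5 to 56.5 CPM. In naive cells 5 B cell markers summed to 56.1 to 143, 8.78 to 49.3 and 45.7 to 190 CPM. The part of other cells in the levels of the members was not tested.

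Immediate early genes are transcribed within minutes of a stimulus from promoters that are already poised, without new protein synthesis, and their mRNAs decay quickly. In T cells they follow the antigen receptor through the ERK and calcium pathways, but they are also known to be induced by mechanical and enzymatic tissue handling. FOS and JUN proteins pair to form AP-1, EGR1 and EGR2 are zinc finger factors, NR4A1 (Nur77) is an orphan nuclear receptor used as a mark of antigen receptor signalling, and DUSP1 and DUSP2 remove the activating phosphates from nuclear MAP kinases.

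Promoters from 250 bases before to 50 bases after the annotated start were found in RefSeq (GRCm38.p6) for 9 of the 10 genes, and 3 are shown because they carry the elements by which these genes are known to be induced by cAMP, calcium or growth factor signals. Capitals mark TGACG or CGTCA, the CRE half-site, and in Dusp1 also the full CRE, TGACGTCA, and in Egr2 also the CArG box bound by SRF. The regions are chr12:85473640-85473939 on the plus strand (Fos), chr17:26508423-26508722 on the minus strand (Dusp1) and chr10:67537619-67537918 on the plus strand (Egr2).
Fos: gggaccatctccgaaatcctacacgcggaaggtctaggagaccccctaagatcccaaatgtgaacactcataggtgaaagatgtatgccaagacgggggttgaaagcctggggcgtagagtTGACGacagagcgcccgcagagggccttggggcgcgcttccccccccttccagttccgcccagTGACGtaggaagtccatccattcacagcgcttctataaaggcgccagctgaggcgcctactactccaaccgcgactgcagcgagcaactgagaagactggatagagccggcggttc
Dusp1: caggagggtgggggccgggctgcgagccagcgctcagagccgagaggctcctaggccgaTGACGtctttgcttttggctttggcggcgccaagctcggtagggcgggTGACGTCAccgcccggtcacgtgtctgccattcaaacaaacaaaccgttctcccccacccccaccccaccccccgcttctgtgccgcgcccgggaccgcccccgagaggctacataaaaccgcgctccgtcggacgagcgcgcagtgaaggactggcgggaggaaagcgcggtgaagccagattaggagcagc
Egr2: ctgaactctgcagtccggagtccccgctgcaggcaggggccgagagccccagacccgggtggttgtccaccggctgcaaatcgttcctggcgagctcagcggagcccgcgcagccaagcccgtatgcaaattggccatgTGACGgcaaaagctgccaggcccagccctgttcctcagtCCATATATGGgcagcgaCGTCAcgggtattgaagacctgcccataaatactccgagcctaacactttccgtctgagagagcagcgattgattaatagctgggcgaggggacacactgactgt

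In this window the Fos promoter held half-sites at -129 and -66 from the start, Dusp1 held the full CRE at -143 and a further half-site at -191, and Egr2 held the CArG box at -72 with half-sites at -111 and -55. Searched on both strands, the half-site was found in any window of 7 of the 9 genes (Fos, Fosb, Junb, Egr2, Nr4a1, Dusp1 and Dusp2). It was found in 20.8% of 32851 single mouse promoters. The members were counted as genes, and Egr2 had several windows, so the 2 shares are not counted alike. The full CRE, which contains the half-site, was found in Dusp1 and in 1.79% of all promoters, and the CArG box in Egr2 and in 1.63%. The AP-1 site TGAGTCA or TGACTCA (5.2% of promoters) and the STAT motif TTCNNNGAA (8.3%) were in no window of the 9 genes. These matches describe letters in a window and do not show that a factor was bound. Bases outside the windows were not searched, so a motif not found here may lie beyond them.

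Changes are given as log2 fold changes ± SE. A gene was called where edgeR's quasi-likelihood test gave a Benjamini-Hochberg adjusted p under 0.05 over all tested genes and the change exceeded 1.5-fold. The p-values measure the spread between libraries that the study calls biological replicates, and the labels do not say which came from separate animals. In sorted bulk populations fewer cells expressing a gene and less RNA per cell cannot be told apart.

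The immediate early genes were lower in cytokine cultures than in NC cells, and all 132 calls among 180 tests (10 genes in 3 genotypes and 6 comparisons) were in that direction. Members were called in 28 of 30 tests for naive CD8+ cells with IL-7, 26 of 30 with IL-15, 5 of 30 for Tcm with IL-7, 27 of 30 for Tcm with IL-15, 20 of 30 for Tem with IL-15 and 26 of 30 for naive CD4+ cells with IL-7. Over all tested genes, the share called in WT, AAB and BBA was 19.5%, 13.9% and 10.9% for naive CD8+ IL-7, 6.37%, 15.9% and 20.2% for naive CD8+ IL-15, 0.257%, 0.600% and 1.43% for Tcm IL-7, 8.62%, 3.71% and 9.11% for Tcm IL-15, 1.73%, 2.03% and 7.62% for Tem IL-15, and 16.3%, 13.1% and 13.6% for CD4+ IL-7. The median log2 fold change of the members in WT was -3.56 and -2.99 in naive CD8+ cells with IL-7 and IL-15, -2.25 and -3.56 in Tcm cells with IL-7 and IL-15, -2.79 in Tem cells and -3.12 in CD4+ cells, where the median of all genes lay between -0.01 and 0.02. The IL-7 and IL-15 comparisons of naive CD8+ cells share their NC libraries, as do those of Tcm cells. Pooled over genotypes, every cytokine library lay below every NC library for 10 members in naive CD8+ cells with IL-7 (13.7% of tested genes did so), 9 with IL-15 (15.4%), 7 in Tcm with IL-7 (3.90%), 9 in Tcm with IL-15 (3.83%), 7 in Tem with IL-15 (4.70%) and 8 in CD4+ cells (10.5%).

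**Figure D1:**
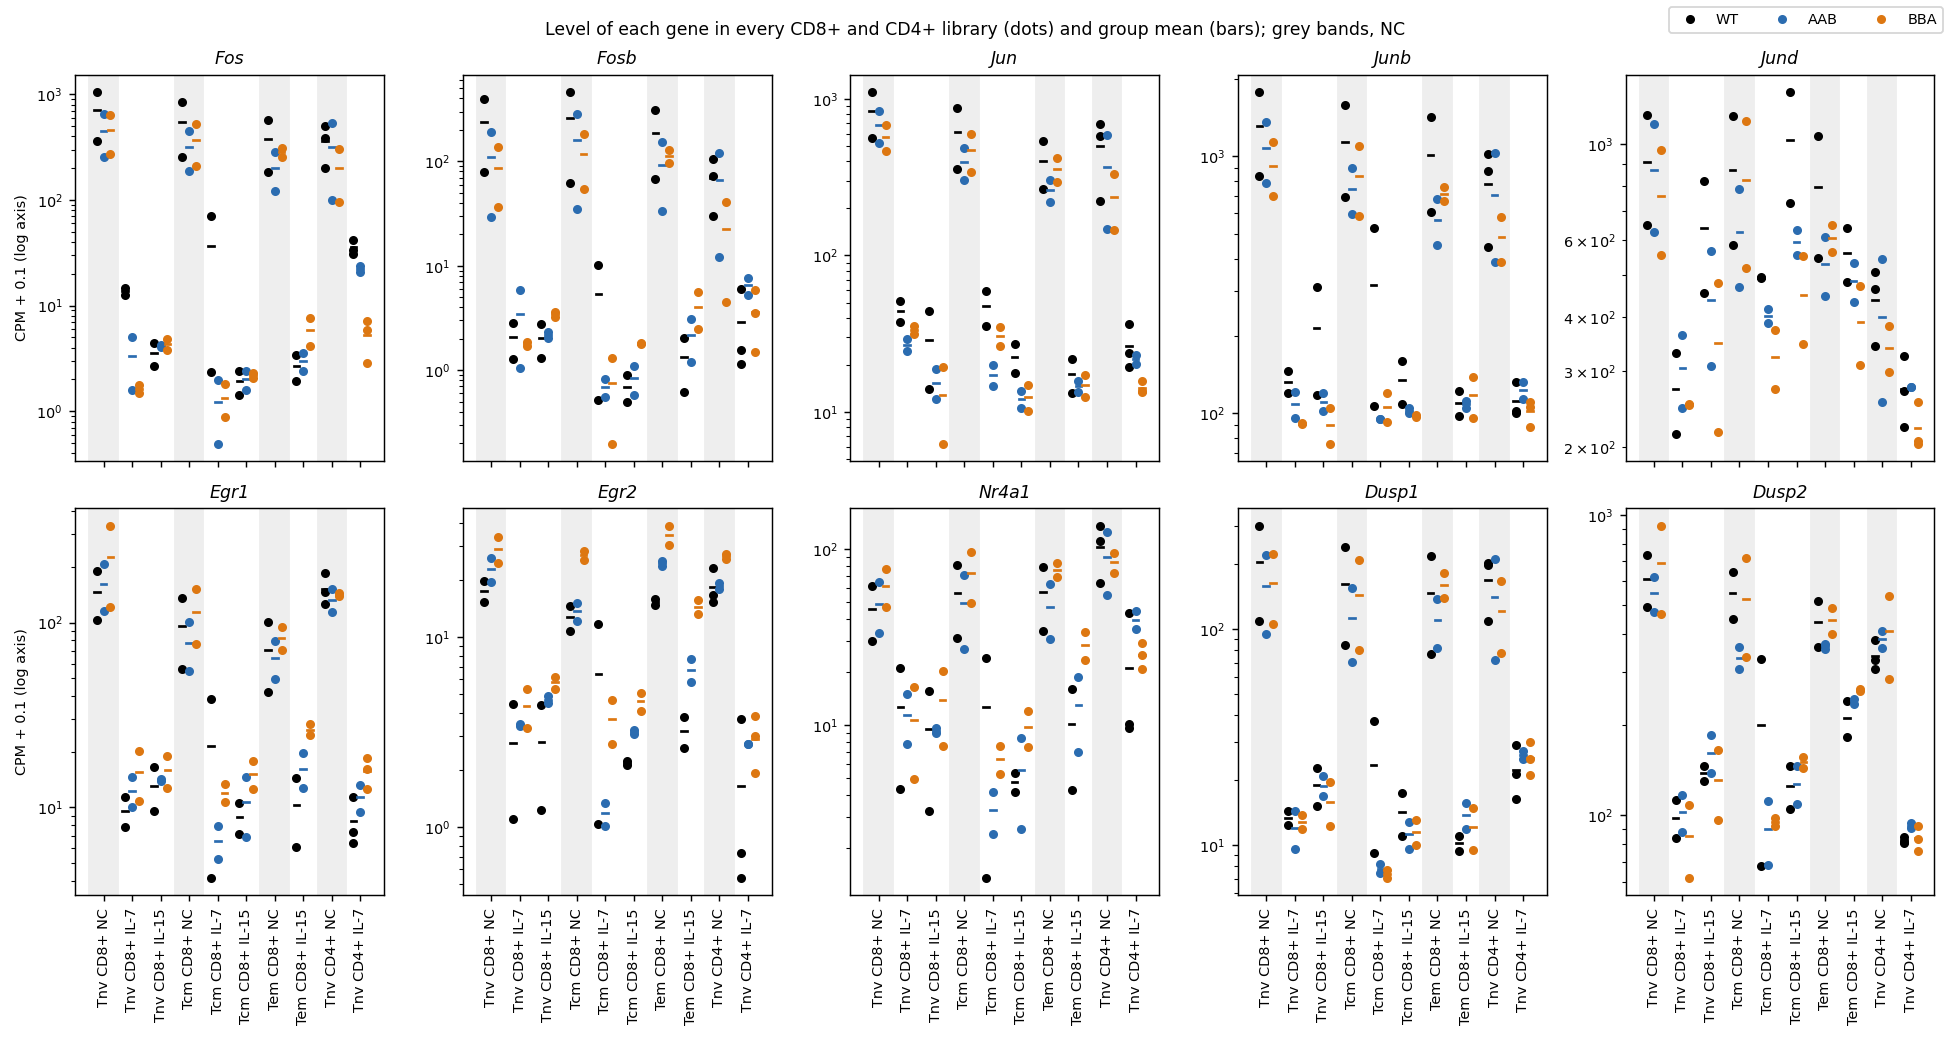
Level of each of the 10 genes in every library, as CPM + 0.1 on a log axis, by cell state and culture. NC libraries lie on grey bands, with dots for libraries, bars for group means and colours for WT, AAB and BBA. Fos falls from 121 to 1051 CPM in the CD8+ NC libraries to 0.392 to 71 CPM with cytokine, whereas Jund overlaps between cultures in all but naive CD8+ cells with IL-7.

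Fos (chr12:85473890-85477273, plus strand, 4 exons), the AP-1 subunit that needs a JUN partner to bind DNA, had wide differences between cultures. In WT naive CD8+ cells it stood at 364 and 1051 CPM in NC, at 14.6 and 12.6 CPM with IL-7 and at 2.6 and 4.32 CPM with IL-15. The 2 NC libraries differed from each other but lay far above all 4 cytokine libraries. Fos fell 49.9-fold with IL-7 (log2 fold change -5.64 ± 0.71, edgeR adjusted p = 0.000479) and 195-fold with IL-15 (-7.60 ± 0.75, edgeR adjusted p = 0.000337).

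The same held in memory cells with IL-15. In WT Tcm cells Fos was at 253 and 849 CPM in NC and at 1.31 and 2.32 CPM with IL-15, a fall of 8.32 ± 0.87 on the log2 scale (319-fold, edgeR adjusted p = 0.000614). In WT Tem cells it was at 183 and 569.7 CPM in NC and 1.82 and 3.32 CPM with IL-15, which was 122-fold lower (edgeR adjusted p = 0.00298). In CD4+ cells Fos was at 201, 498 and 385 CPM in NC and at 30.7, 42 and 33.9 CPM with IL-7, and the fall was 10-fold (log2 fold change -3.33 ± 0.57, edgeR adjusted p = 0.000571). No cytokine library overlapped an NC library in these 3 comparisons.

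Fosb, the inducible paralog of Fos (chr7:19302696-19310051, minus strand), moved with it. In WT naive CD8+ cells it was at 78.8 and 399 CPM in NC, 1.18 and 2.74 CPM with IL-7 and 1.21 and 2.69 CPM with IL-15, so both cytokine groups lay entirely below NC. It fell 118-fold with IL-7 (-6.89 ± 1.34, edgeR adjusted p = 0.00425) and 114-fold with IL-15 (-6.83 ± 1.22). Its standard errors, 1.02 to 1.60 in the WT comparisons called, were the largest of the 10 genes. In CD4+ cells the NC libraries ran from 4.36 CPM in one BBA library to 119 CPM in one AAB library and so overlapped the IL-7 libraries (1.05 to 7.61 CPM). There Fosb was called in WT (-4.78 ± 1.02, edgeR adjusted p = 0.00267) and AAB but not in BBA (-2.66 ± 0.99, edgeR adjusted p = 0.0595).

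Jun (chr4:95049034-95052222, minus strand, a single exon), the partner of the FOS proteins in AP-1, was the only member called in all 18 tests, including Tcm cells with IL-7. In WT naive CD8+ cells it stood at 560.1 and 1107 CPM in NC, 37.4 and 50.9 CPM with IL-7 and 13.9 and 44 CPM with IL-15. In WT Tcm cells it was at 357 and 876 CPM in NC, 59.3 and 35.2 CPM with IL-7 and 17.5 and 26.9 CPM with IL-15. Cytokine and NC libraries did not overlap in either state. Jun fell 18.1-fold with IL-7 (-4.18 ± 0.36, edgeR adjusted p = 5.79e-05) and 27.8-fold with IL-15 in naive cells, and 13.3-fold with IL-7 (-3.73 ± 0.48, edgeR adjusted p = 0.0205) and 29.1-fold with IL-15 in Tcm cells. In CD4+ cells it went from 224, 577 and 696 CPM to 23.6, 19.2 and 36.4 CPM, a 19.1-fold fall (edgeR adjusted p = 5.7e-05).

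Junb (chr8:84974484-84978718, minus strand) and Jund, the most steadily expressed JUN gene in many tissues, had high NC levels but smaller changes than Jun. Junb was at 835 and 1777 CPM in WT naive NC cells, 119.9 and 145 CPM with IL-7 and 117 and 311 CPM with IL-15, with no overlap, and fell 9.44-fold (edgeR adjusted p = 0.000306) and 5.94-fold (edgeR adjusted p = 0.0109). The highest of these IL-15 values came from the library that also held Cd4 transcripts, WT naive IL-15 replicate 2. All 10 members were higher in that library than in replicate 1. Among them were Jun (44 against 13.9 CPM), Jund (824 against 454 CPM) and Nr4a1 (15.6 against 3.12 CPM). In Tcm, Tem and CD4+ cells of WT mice Junb fell 8.87-fold (IL-15), 8.17-fold (IL-15) and 6.99-fold (IL-7).

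Jund (chr8:70698949-70700616, plus strand, a single exon) stood at 649.6 and 1167 CPM in WT naive NC cells, 215 and 330.3 CPM with IL-7 and 454 and 824 CPM with IL-15. It fell with IL-7 in naive CD8+ cells of all genotypes (WT 3.2-fold, -1.68 ± 0.37, edgeR adjusted p = 0.0076) and in WT CD4+ cells (1.6-fold, -0.68 ± 0.23, edgeR adjusted p = 0.0329). With IL-15 it was not called in any genotype without a replicate block. Its WT log2 fold changes there were -0.48 ± 0.47 in naive, 0.17 ± 0.47 in Tcm and -0.33 in Tem cells, and the libraries overlapped, with 731 and 1318 CPM in WT Tcm cells with IL-15 against 586 and 1160.1 CPM in NC. On a scale per kilobase of merged exons, which allows levels of different genes to be compared, Junb (568 ± 289 CPM per kb, SD, n = 2) and Jund (545 ± 219) were the highest of the 10 genes in WT naive NC cells, ahead of Dusp2 (306 ± 85.5), Fos (301 ± 207) and Jun (261 ± 121). All 10 members were higher in replicate 2 than in replicate 1 of these NC libraries, so the SDs hold a shift that the genes share. They do not measure whether 2 genes differ, and the order of the genes was not tested. With IL-7 the order was Jund (163 ± 49), Junb (57.7 ± 7.85), Dusp2 (48.9), Jun (13.8) and Fos (5.77 ± 0.603), and with IL-15 Jund stood at 383 ± 157 and Fos at 1.47 ± 0.516.

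**Figure D2:**
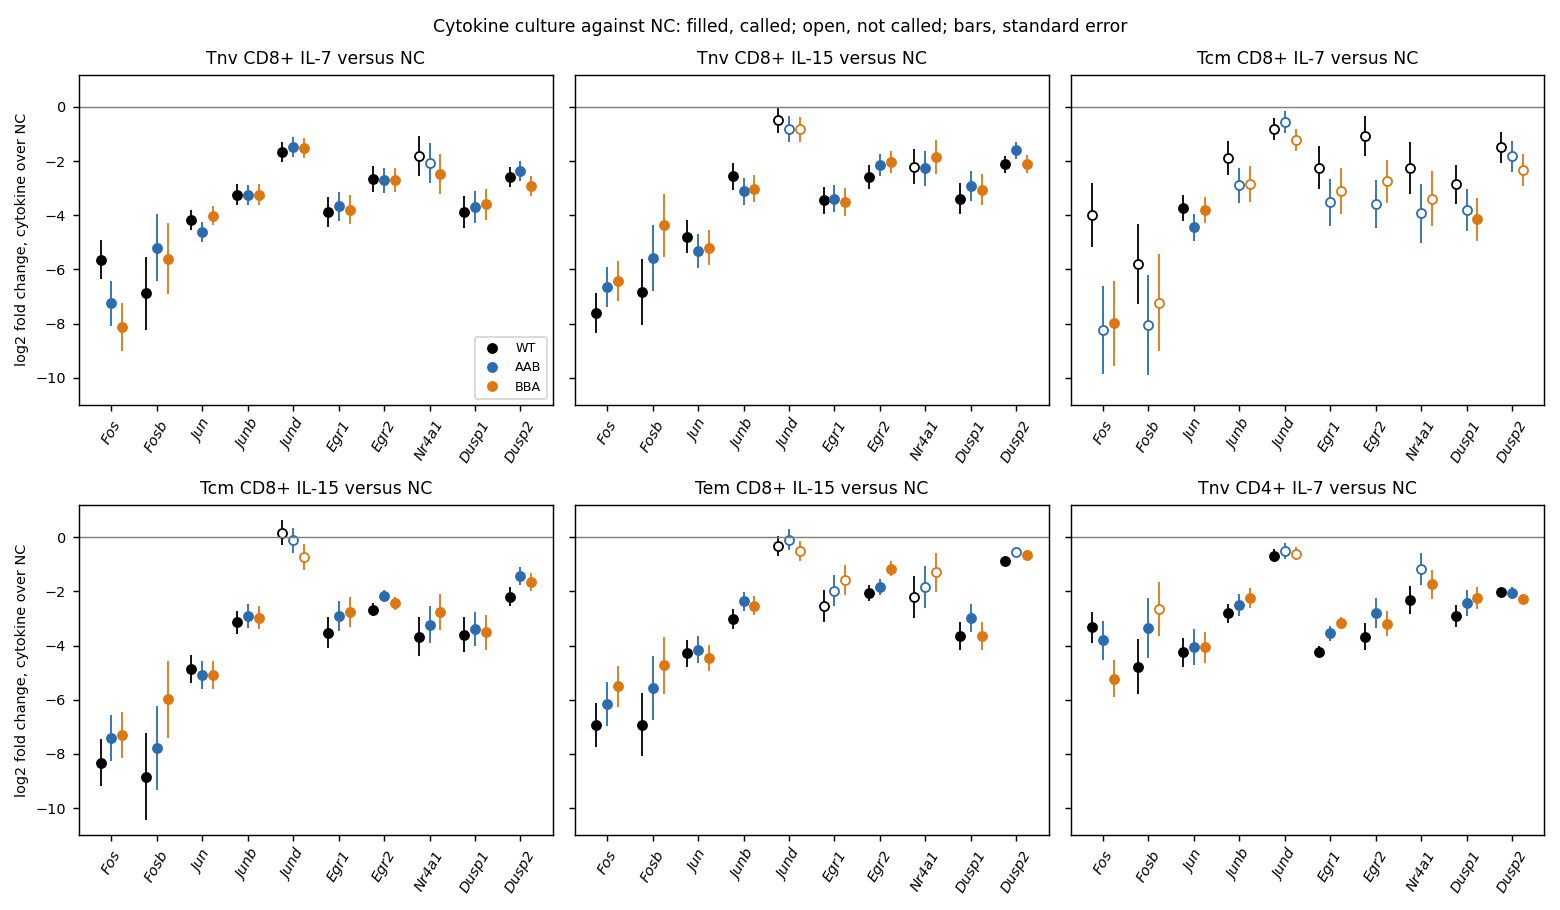
Log2 fold change with cytokine against NC, with its SE, for each of the 10 genes in 6 comparisons and 3 genotypes, where filled points were called (edgeR adjusted p under 0.05 and over 1.5-fold) and open points were not. Fos and Fosb lie lowest, Jund nearest to 0, and most points of Tcm IL-7 are open with long bars.

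Egr1, a zinc finger factor induced through ERK, fell in naive CD8+ cells, in Tcm cells with IL-15 and in CD4+ cells. In WT naive CD8+ cells it was at 103 and 189 CPM in NC, 7.75 and 11.2 CPM with IL-7 and 9.45 and 16.4 CPM with IL-15. These groups did not overlap, and the falls were 14.8-fold (-3.89 ± 0.55, edgeR adjusted p = 0.000856) and 10.9-fold (-3.45 ± 0.51, edgeR adjusted p = 0.00295). In WT Tcm cells it was at 56 and 136 CPM in NC and 7.09 and 10.4 CPM with IL-15 (11.6-fold lower, edgeR adjusted p = 0.00397). In CD4+ cells it gave the smallest p of all members, with 127, 146 and 184 CPM in NC and 7.23, 6.29 and 11.3 CPM with IL-7 (18.9-fold lower, edgeR adjusted p = 4.43e-08). In Tem cells with IL-15 the values, 41.9 and 100.2 CPM in NC and 5.99 and 14.3 CPM with IL-15, did not overlap, but the change missed the threshold in all genotypes (WT -2.54 ± 0.58, edgeR adjusted p = 0.0598) unless the replicate number was a block (WT edgeR adjusted p = 0.000721).

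Egr2 (chr10:67535475-67542188, plus strand), a factor that restrains activated T cells, was low throughout. In WT naive CD8+ cells it stood at 15.1 and 19.7 CPM in NC, 1.01 and 4.35 CPM with IL-7 and 1.13 and 4.32 CPM with IL-15. It fell 6.36-fold and 6.02-fold there, 6.39-fold in Tcm cells with IL-15 (edgeR adjusted p = 0.000253), 4.14-fold in Tem cells with IL-15 (edgeR adjusted p = 0.00967) and 12.7-fold in CD4+ cells (edgeR adjusted p = 7.73e-05). Nr4a1 (chr15:101254269-101274795, plus strand) was the least regular of the falling genes. In WT naive CD8+ cells it was at 29.8 and 61.4 CPM in NC, 4.21 and 21 CPM with IL-7 and 3.12 and 15.6 CPM with IL-15, which did not overlap, but neither change was called (edgeR adjusted p = 0.083 and 0.0573). It fell 12.8-fold in WT Tcm cells with IL-15 (-3.67 ± 0.71, edgeR adjusted p = 0.0094) and 5-fold in WT CD4+ cells (-2.32 ± 0.50, edgeR adjusted p = 0.00305), and in Tem cells was called only with the block (WT edgeR adjusted p = 0.00344).

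The phosphatases fell too. Dusp1 (chr17:26505590-26562128, minus strand) was at 109 and 301 CPM in WT naive NC cells, 12.4 and 14.3 CPM with IL-7 and 15.2 and 22.7 CPM with IL-15, with no overlap, and fell 14.8-fold (edgeR adjusted p = 0.00109) and 10.5-fold (edgeR adjusted p = 0.00571). It fell 12.1-fold in Tcm and 12.6-fold in Tem cells with IL-15, and 7.56-fold in CD4+ cells.

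Dusp2 (chr2:127336159-127338376, plus strand), a nuclear MAP kinase phosphatase of blood cells, was at 492 and 734 CPM in WT naive NC cells, 84.1 and 112 CPM with IL-7 and 130.3 and 145 CPM with IL-15. It fell 6.02-fold (edgeR adjusted p = 0.000853) and 4.37-fold (edgeR adjusted p = 0.00387) and with little spread in CD4+ cells, from 382, 328 and 306 CPM to 81.6, 80.8 and 84.5 CPM (4.11-fold, edgeR adjusted p = 2.59e-06). In WT Tem cells the groups were closer, at 364 and 515 CPM in NC and 239.9 and 182 CPM with IL-15, a 1.85-fold fall (-0.89 ± 0.17, edgeR adjusted p = 0.0359). Whether the difference between IL-15 and NC varied between Tem and the other states was not tested.

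Tcm cells with IL-7 were the exception in the number of calls. Only Jun was called in WT and AAB, and Jun, Fos and Dusp1 in BBA. Here 1 WT library stood apart: Fos was at 71 CPM in replicate 1 and 2.24 CPM in replicate 2, Junb at 525 and 107 CPM, the early activation antigen Cd69 at 146 and 13.7 CPM, and the heat shock gene Hspa1b at 9.01 and 0.260 CPM. The WT change of Fos was -3.99 ± 1.19 (edgeR adjusted p = 0.15). Without that library, which left 1 WT library with IL-7, the WT log2 fold change of Fos was -7.90. With 1 library in that group, no call is drawn from this refit. In AAB and BBA, which had no such library, Fos was at 189 and 447 CPM and at 211 and 523 CPM in NC, and at 1.87 and 0.392 CPM and at 0.777 and 1.72 CPM with IL-7.

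NC replicates differed widely. In WT naive, Tcm and Tem cells and in AAB and BBA naive and Tcm cells, all 10 members were higher in the NC library numbered 2 than in that numbered 1. In AAB Tem cells 9 were higher and in BBA Tem cells 5 were. The median log2 difference over the members was 1.0 in WT naive, 1.28 in WT Tcm and 1.21 in WT Tem cells, 0.83 and 0.89 in AAB and BBA naive cells, 0.81 and 1.03 in their Tcm cells, and 0.63 and 0.02 in their Tem cells, against -0.15 to 0.06 over all genes. Among CD4+ NC libraries, replicate 1 had the lowest Fos of each genotype, with 99.7 against 535 CPM in AAB and 96.6 against 307 CPM in BBA. What set these libraries apart was not tested.

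**Figure D3:**
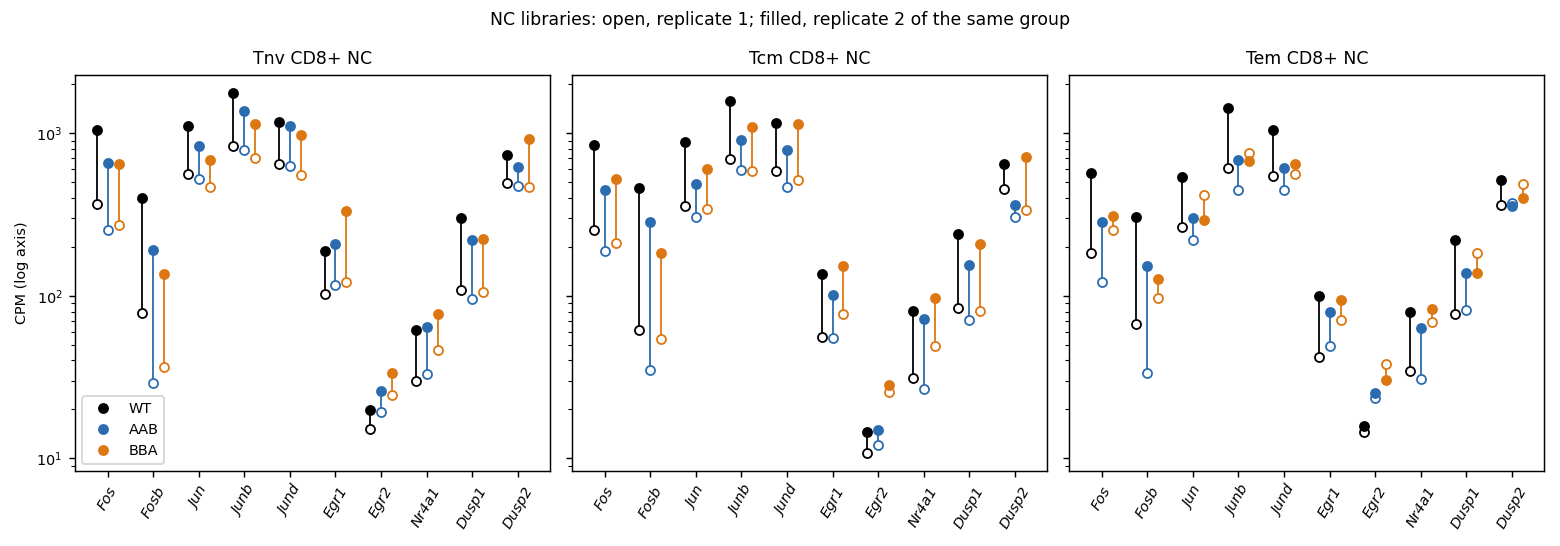
Level of the 10 genes (CPM, log axis) in the NC libraries of naive, Tcm and Tem CD8+ cells for WT, AAB and BBA, with open points for the library numbered 1 and filled points for that numbered 2. The filled point is the higher one for all 10 genes in 7 of the 9 groups.

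Heat shock genes moved in the same libraries. The summed level of the 8 listed heat shock genes was 4542 to 7131 CPM in naive CD8+ NC cells, 2140 to 3360 CPM with IL-7 and 1322 to 2689 CPM with IL-15, and in CD4+ cells 3840 to 12242 CPM in NC and 2032 to 3042 CPM with IL-7. Hspa1b lay at 66.4 to 197 CPM in NC and at 0 to 9.01 CPM in the CD8+ cytokine cultures. Hspa1a and Hspa1b are near-identical copies, so the split of reads between them is uncertain. The part of cell handling or stress in the NC levels was not tested.

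To find the genes most like Fos, log2 levels were correlated over the 48 CD8+ libraries and 11545 genes. These libraries share cultures, so the correlation largely follows the split of NC from cytokine. Outside the members the highest were Ppp1r15a (0.971), which restores translation after stress, Hspa1b (0.971), Hspa1a (0.962), Ier2 (0.947), Dtx1 (0.946), Dnajb1 (0.939), Ier5 (0.938) and Arc (0.921). Among the members r was 0.975 for Dusp1, 0.973 for Fosb, 0.971 for Junb, 0.959 for Jun, 0.939 for Egr1, 0.892 for Dusp2, 0.880 for Nr4a1, 0.857 for Egr2 and 0.573 for Jund. Within the 18 NC libraries alone, r with Fos was 0.972 for Junb, 0.957 for Jund, 0.950 for Arc, 0.928 for Ppp1r15a and 0.924 for Ier2, 0.591 for Dnajb1, 0.434 for Hspa1b, 0.225 for Hspa1a and 0.053 for Egr2. Jund thus varied with Fos among NC cells while differing from it across cultures, and Egr2 did the reverse. Within the 30 cytokine libraries alone, r with Fos was 0.698 for Dusp1, 0.649 for Junb, 0.517 for Egr1, 0.410 for Jun and -0.092 for Jund. It was 0.676 for Hspa1b, 0.570 for Hspa1a and 0.521 for Dnajb1 there.

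Genotypes were compared within each condition. AAB against WT gave 0 calls by edgeR among the 10 genes in each of the 10 conditions, where 0.164%, 0.256% and 0.908% of all genes were called in naive CD8+ NC, IL-7 and IL-15, 0.0390%, 0.0589% and 4.45% in Tcm NC, IL-7 and IL-15, 0.0198% and 0.0199% in Tem NC and IL-15, and 0.355% and 0.637% in CD4+ NC and IL-7. At an unadjusted p under 0.05 there were 9 AAB tests over all conditions, and DESeq2 called 3. BBA against WT gave 5 calls, where 2.75%, 2.69% and 9.60% of all genes were called in naive CD8+ NC, IL-7 and IL-15, 0.283%, 3.08% and 23.5% in Tcm NC, IL-7 and IL-15, 0.208% and 1.81% in Tem NC and IL-15, and 1.13% and 5.51% in CD4+ NC and IL-7. The 5 were Fos in naive CD8+ IL-7, Egr2 in Tem NC and Fos, Jun and Egr1 in CD4+ IL-7. Fos, Fosb and Egr2 in naive and Tcm IL-15, Fos and Fosb in Tem IL-15 and Egr2 in CD4+ IL-7 were too low to be tested between genotypes.

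Fos was lower in BBA than in WT cells cultured with IL-7. In CD4+ cells it stood at 30.7, 42 and 33.9 CPM in WT, 20.9 and 23.7 CPM in AAB and 7.06, 5.8 and 2.77 CPM in BBA, and the 3 genotypes did not overlap. The BBA level was 6.62-fold lower than WT (-2.73 ± 0.27, edgeR adjusted p = 0.00037), which was called whichever library was left out. In naive CD8+ cells with IL-7 Fos was at 14.6 and 12.6 CPM in WT, 1.5 and 4.95 CPM in AAB and 1.38 and 1.68 CPM in BBA. There BBA was 8.69-fold lower (-3.12 ± 0.59, edgeR adjusted p = 0.0488), which lost its call without either WT or either BBA library (edgeR adjusted p = 0.217 to 0.334). In Tcm cells with IL-7, where 1 WT library stood apart, the change was not called. With IL-15 the 3 genotypes of naive cells overlapped, at 2.6 and 4.32 CPM in WT, 4 and 4.16 CPM in AAB and 3.7 and 4.76 CPM in BBA.

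Jun and Egr1 in CD4+ cells with IL-7 moved in opposite directions in BBA. Jun was at 23.6, 19.2 and 36.4 CPM in WT and 15.8, 13.2 and 13.4 CPM in BBA (1.83-fold lower, edgeR adjusted p = 0.0364). Egr1 was at 7.23, 6.29 and 11.3 CPM in WT and 18.3, 12.5 and 16.1 CPM in BBA (1.94-fold higher, 0.95 ± 0.25, edgeR adjusted p = 0.0421). Neither pair of groups overlapped. The call of Jun was lost without WT replicate 1 or 3 or any BBA library (edgeR adjusted p = 0.0632 to 0.106), and that of Egr1 without WT replicate 1 or 2 or BBA replicate 1 or 3 (edgeR adjusted p = 0.104 to 0.151).

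Egr2 was the only member called between genotypes in NC cells without a replicate block. In Tem NC cells it stood at 14.6 and 15.7 CPM in WT, 23.6 and 25.1 CPM in AAB and 38.3 and 30.5 CPM in BBA, so the 3 genotypes did not overlap, and BBA was 2.45-fold higher than WT (1.29 ± 0.15, edgeR adjusted p = 0.0369). The call was lost when any 1 of the 6 libraries other than BBA replicate 2 was left out (edgeR adjusted p = 0.0737 to 0.294). In the other NC populations BBA also lay above WT without overlap, though how many of all tested genes did so was not counted. Egr2 was at 24.4 and 33.7 CPM in BBA against 15.1 and 19.7 CPM in WT naive CD8+ cells (0.75 ± 0.21, edgeR adjusted p = 0.0963). Tcm cells held 25.4 and 28.4 CPM against 10.7 and 14.5 CPM (1.17 ± 0.22, edgeR adjusted p = 0.138). Naive CD4+ cells held 27.2 and 25.7 CPM against 16.5, 15.2 and 23 CPM (0.53 ± 0.17, edgeR adjusted p = 0.287). None of these 3 was called without a replicate block. With the replicate number as a block edgeR called all 3 (adjusted p = 0.00642, 0.00450 and 0.0184), where the share of all genes called is not given. In Tem cells with IL-15 Egr2 was at 2.52 and 3.7 CPM in WT, 5.74 and 7.54 CPM in AAB and 15.6 and 13.1 CPM in BBA, again without overlap, and BBA was 4.60-fold higher (2.20 ± 0.52, edgeR adjusted p = 0.104), which was called only with the block (2.26, edgeR adjusted p = 0.00407).

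**Figure D4:**
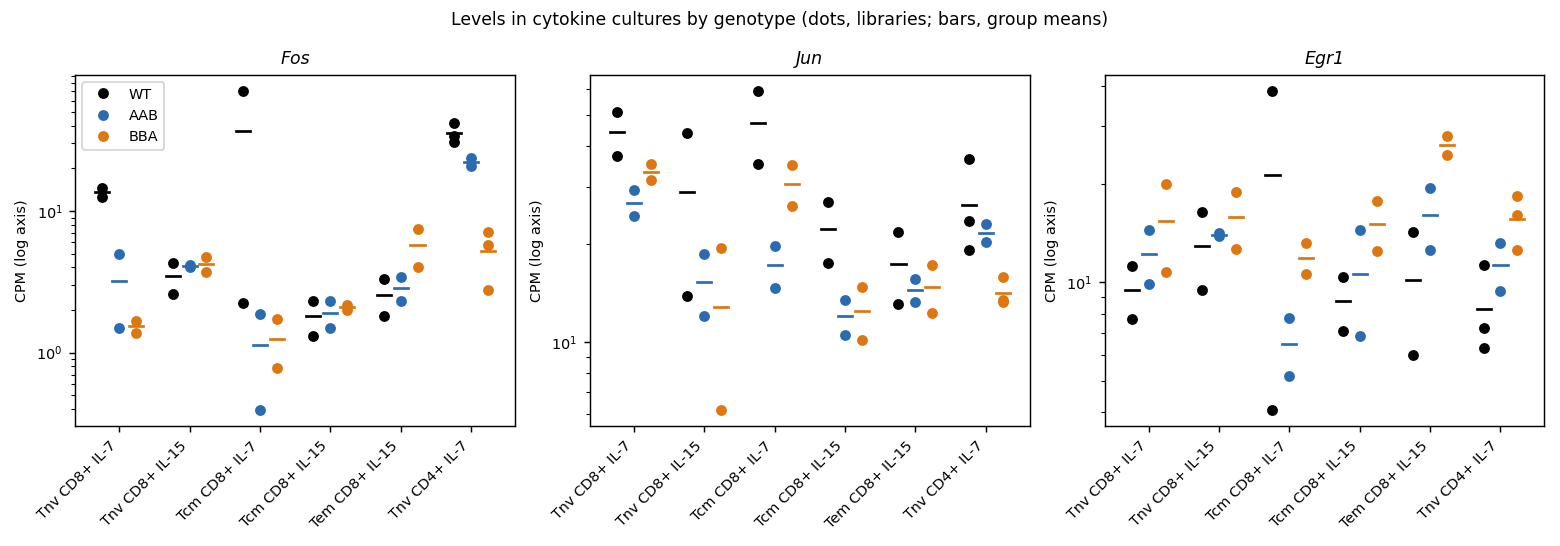
Level of Fos, Jun and Egr1 (CPM, log axis) in each library (dots) of the 6 cytokine cultures, coloured by genotype, with bars for group means. With IL-7 in CD4+ cells the BBA libraries lie below WT for Fos (2.77 to 7.06 against 30.7 to 42 CPM) and above it for Egr1.

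The difference between cytokine and NC cells, here called the response, was compared between genotypes with an interaction term. For BBA against WT it gave 0 calls by edgeR among the 10 genes in all 6 comparisons (3 at an unadjusted p under 0.05, and 1 call by DESeq2). The share of all genes called was 2.46% in naive CD8+ IL-7, 2.42% in naive CD8+ IL-15, 0.114% in Tcm IL-7, 7.64% in Tcm IL-15, 0.00966% in Tem IL-15 and 1.10% in CD4+ IL-7. For Fos, whose BBA response to IL-7 was the more negative, the interaction was -2.49 ± 1.11 (edgeR adjusted p = 0.294) in naive CD8+ and -1.90 ± 0.86 (edgeR adjusted p = 0.455) in CD4+ cells. For Egr1 in CD4+ cells it was 1.08 ± 0.32 (edgeR adjusted p = 0.164). These p-values, from 2 or 3 libraries a group, do not show that the genotypes responded alike.

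Cell states of WT NC cells gave 0 calls among the members by edgeR, by DESeq2 and at an unadjusted p under 0.05 alike, where 3.40% of all genes differed between Tcm and naive cells, 8.18% between Tem and naive cells and 2.26% between Tem and Tcm cells. Fos was -0.36 ± 0.80 and -0.89 ± 0.81 in Tcm and Tem against naive cells. With the replicate number as a block edgeR called Fos (-0.92, adjusted p = 0.00919), Jun (-1.04, adjusted p = 0.0149) and Egr1 (-1.08, adjusted p = 0.000522) lower in Tem than in naive cells. Egr1 was then also called lower in Tcm cells (-0.68, adjusted p = 0.0190). The shares of all genes above are those without the block, and none is given with it. IL-15 was compared with IL-7 directly in WT cells. In naive cells, where 5.25% of genes were called, Fos was lower with IL-15 (-1.99 ± 0.51, edgeR adjusted p = 0.0474), with a different Xist and Y-linked pattern in each cytokine. The call was lost when any library other than the 2 AAB IL-7 libraries was left out of the fit (edgeR adjusted p = 0.0589 to 0.245). Jund was at 454 and 824 CPM with IL-15 and at 215 and 330.3 CPM with IL-7 (1.20 ± 0.40, edgeR adjusted p = 0.0963). In Tcm cells, where 0.444% of genes were called, none of the members was called by edgeR, and 5 had an unadjusted p under 0.05. There too the WT libraries of each cytokine had a different Xist and Y-linked pattern.

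With the active STAT5A retrovirus 2 members were called, in opposite directions, where 6.63% of all genes were called. Jun was at 81.8 and 112 CPM with empty vector and 51.9 and 42.8 CPM with CA-STAT5A, a fall of 1.06 ± 0.18 on the log2 scale (edgeR adjusted p = 0.0217) that was not called without CA-STAT5A replicate 2 (-0.94, edgeR adjusted p = 0.0619). Dusp2 rose from 244 and 215 CPM to 1066 and 519.9 CPM (1.76 ± 0.31, edgeR adjusted p = 0.0233). Fos was at 79.9 and 57.2 CPM with empty vector and 43.6 and 25 CPM with CA-STAT5A, with no overlap, and was not called (-1.02 ± 0.28, edgeR adjusted p = 0.0841). It was called with the libraries paired by their Xist and Y-linked pattern (-1.06 ± 0.19, edgeR adjusted p = 0.00232), and without empty vector replicate 2 (edgeR adjusted p = 0.0125) or CA-STAT5A replicate 1 (edgeR adjusted p = 0.0420).

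These 4 libraries went against their label. The summed CD8 lineage markers Cd8a and Cd8b1 lay at 1.73 to 4.67 CPM and the Cd3 genes at 19.5 to 210 CPM, while the natural killer cell markers Ncr1 and Klrb1c together lay at 1610 to 1847 CPM and the 7 listed myeloid markers together at 550 to 1405 CPM. Of these Itgam, which natural killer cells also express, held 287 to 309 CPM with empty vector and 1120 to 1286 CPM with CA-STAT5A, and each other gene lay at 0.370 to 197 CPM. Stat5a was at 60.7 to 60.9 CPM with CA-STAT5A and 3.17 to 8.35 CPM with empty vector, as the vectors were labelled. Stat5b was higher with CA-STAT5A too, at 132 to 150 CPM against 61.4 to 72.6 CPM with empty vector. The reason for this difference in Stat5b was not tested. Each vector had 1 library with Xist and 1 with Y-linked genes. The part of this cell make-up in the values of Jun and Dusp2 was not tested.

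The genes around the members were described from lists of the same pathways. Among the EGR and NR4A relatives (6 listed), those called lower in WT were 3 of 5 tested in naive CD8+ IL-7, 4 of 4 in naive IL-15, 0 of 5 in Tcm IL-7, 4 of 5 in Tcm IL-15, 2 of 5 in Tem IL-15 and 4 of 5 in CD4+ cells, with none higher. Egr3, a close relative of Egr2, fell in naive CD8+ cells with IL-7 (log2 fold change -3.29) and in CD4+ cells (-4.92 ± 0.51, edgeR adjusted p = 9.89e-06). Of the 7 other MAP kinase phosphatases, 4 of 5 tested fell in naive CD8+ cells with IL-7, 2 of 4 with IL-15, 0 of 6 in Tcm IL-7, 2 of 6 in Tcm IL-15 and in Tem IL-15, and 3 of 6 in CD4+ cells. Dusp6, the cytoplasmic ERK phosphatase, fell by 3.08 ± 0.25 in naive CD8+ cells with IL-7 (edgeR adjusted p = 3.9e-05) and by 3.54 ± 0.26 in CD4+ cells (edgeR adjusted p = 4.73e-07), whereas Dusp16, a JNK phosphatase, rose in CD4+ cells (1.48 ± 0.25, edgeR adjusted p = 0.000592).

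Of the 24 other early response genes, 14 fell in naive CD8+ cells with IL-7, 9 with IL-15, 0 in Tcm with IL-7, 15 in Tcm with IL-15, 9 in Tem with IL-15 and 13 in CD4+ cells, while 2 rose in naive CD8+ cells with IL-7 and 5 in CD4+ cells. Ppp1r15a fell by 3.42 ± 0.41 in naive CD8+ cells with IL-7 (edgeR adjusted p = 0.000343), the quiescence factor Klf4 by 5.36 ± 0.85 in Tcm cells with IL-15 (edgeR adjusted p = 0.00374) and Cd69 by 3.39 ± 0.32 in naive cells with IL-15. Rgs1, a brake on chemokine receptors, rose with IL-7 in naive CD8+ (3.17 ± 0.40, edgeR adjusted p = 0.00048) and CD4+ cells (3.13 ± 0.43, edgeR adjusted p = 0.000102) and fell in Tcm cells with IL-15 (-2.23 ± 0.28, edgeR adjusted p = 0.00136). Rhob, a small GTPase, fell by 2.08 in naive CD8+ cells with IL-7 and rose by 1.48 in CD4+ cells. The early response list thus held genes that moved in either direction within 1 comparison.

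The other AP-1 genes (8 listed) were mostly not called, with 1 of 4 tested lower in naive CD8+ cells with IL-7, 1 lower and 1 higher of 4 in CD4+ cells and none in the other 4 comparisons. In the ERK and SRF pathway (18 listed), which lies upstream of these promoters, calls went both ways, with 4 lower and 4 higher of 17 in naive CD8+ IL-7, 2 lower and 1 higher of 16 in naive IL-15, 0 of 17 in Tcm IL-7, 2 lower of 16 in Tcm IL-15, 0 of 16 in Tem IL-15 and 3 lower and 4 higher of 16 in CD4+ cells. The SRF coactivator Mkl1 rose in 3 comparisons (0.76, 0.72 and 1.33), the ERK inhibitor Spry1 in naive CD8+ cells with IL-7 (1.75 ± 0.51, edgeR adjusted p = 0.0259) and in CD4+ cells (1.16, edgeR adjusted p = 0.0308), and the Ras activator Rasgrp1 in the same 2 comparisons (0.82 and 1.27). Of the heat shock genes tested, those that fell were 6 of 7, 7 of 7, 1 of 7, 4 of 8, 4 of 7 and 7 of 7 in the order naive CD8+ IL-7, naive IL-15, Tcm IL-7, Tcm IL-15, Tem IL-15 and CD4+. Hspa1a fell in all 6 comparisons, by 5.48 to 9.48 on the log2 scale.

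**Figure D5:**
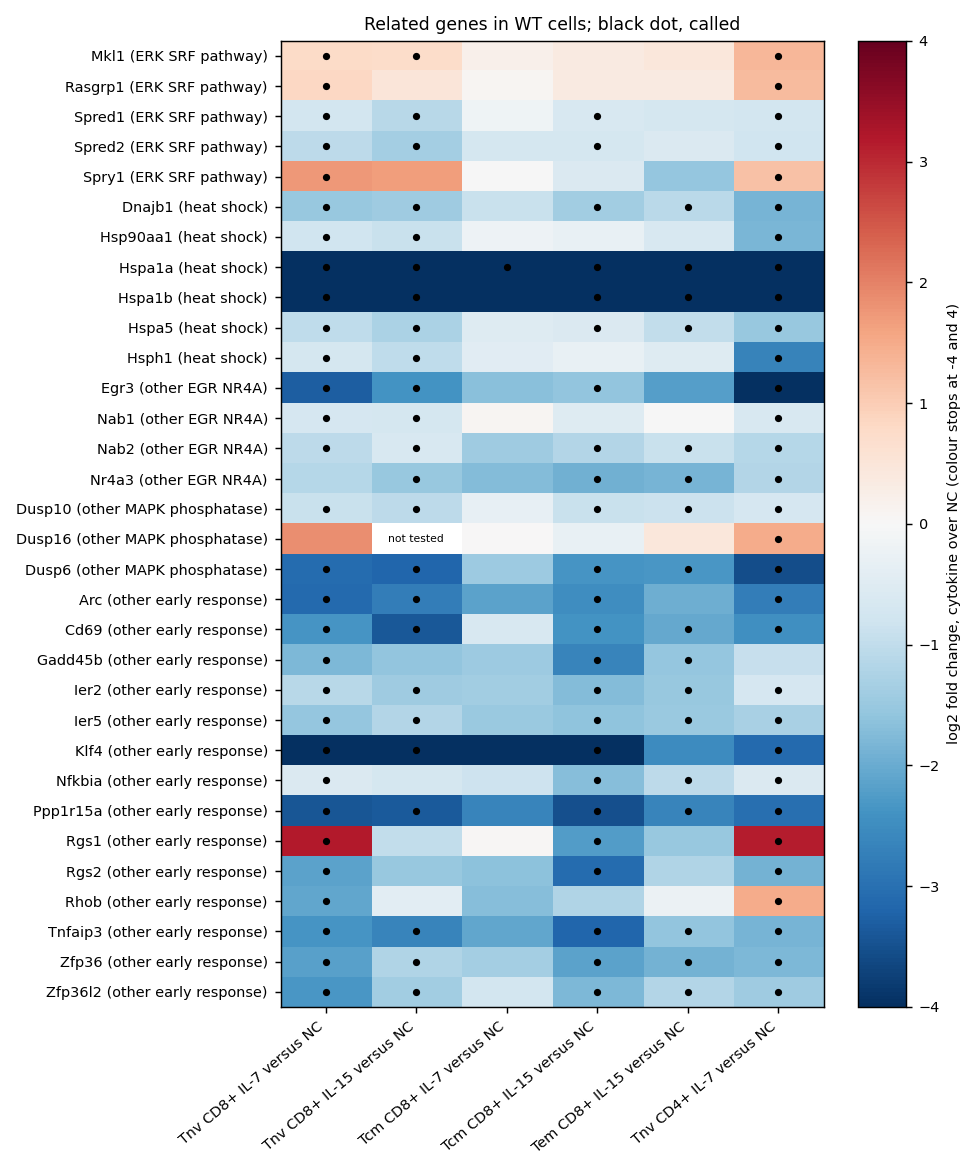
Log2 fold change with cytokine against NC in WT cells for 32 named genes of the related lists in 6 comparisons, where a dot marks a call and the colour scale stops at -4 and 4. Hspa1a is lower with cytokine in all 6 comparisons, while Rgs1, Mkl1, Spry1 and Rasgrp1 are higher with IL-7 in naive cells.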

How the data were processed

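Poly(A) RNA of sorted cells was sequenced, and the authors deposited 3 tables of raw read counts per gene (CD8+, CD4+ and retroviral). Per the labels, TopHat2, Cufflinks and HTSeq were used with build mm9, while the study's methods name mm10, so no coordinate was taken from the tables, and positions are those of GENCODE on GRCm38. Rows that summarise unassigned reads, 67.0% to 68.4% of each retroviral column, were left out. Groups came from the labels, and 2 CD4+ libraries without a clear group entered no comparison.

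Genes were filtered with a re-implementation of the HTSFilter Jaccard index (thresholds of 40.2 to 111.0 over 20 fits, leaving 9412 to 10535 genes). The counts were scaled with TMM and tested with edgeR 4.0.16 (quasi-likelihood, Benjamini-Hochberg) in R 4.3.3, with SE taken as the absolute log2 fold change over the square root of F. Alternatives were DESeq2 1.42.0, its size factors or plain totals in place of TMM, the newer form of edgeR's test, other filters, a limit of 2-fold, fits on other sets of libraries, a replicate block and leaving out each library. On simulated counts for naive IL-15 in WT (10386 genes), 73% of changes of 1 and 96% of changes of 3 on the log2 scale were recovered. There 8 unchanged genes were called. The changed genes were drawn at random from all tested genes, so these rates do not describe the members. The related genes named come from those of the lists called in WT in at least 3 of the 6 cytokine comparisons, or among up to 4 with the largest change in each direction of a comparison and no overlap, and the 8 likeness genes had the highest Pearson r with Fos, on log2(CPM + 1), outside the members. The members and lists were chosen with earlier results of these data known. None of the 38 replicate pairs was as close as counting error alone would make it (lowest chi-square 5.75 times its degrees of freedom).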

Additional observations from a re-analysis of the deposited data

How the results depend on the processing

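Over the WT changes with cytokine of the 10 genes, all 540 values under the alternatives kept their sign, 504 kept their side of the threshold, 30 passed it where the reported value had not and 6 no longer did. The calls that depended on the setting were those of Tcm cells with IL-7 (5 as reported), which became 21 with DESeq2, 19 with each genotype fitted by itself, 27 without a filter, 25 with all CD8+ libraries in 1 fit and 1 to 27 when 1 library was left out, and of the genotype comparisons. AAB against WT (0) gave 3 with DESeq2, 18 without a filter, 2 with all libraries of the lineage in 1 fit and 0 to 9 when 1 library was left out. BBA against WT (5) gave 11 with DESeq2, 9 with filterByExpr, 28 without a filter, 3 at over 2-fold and 3 to 12 when 1 library was left out. The BBA and WT responses (0) gave 1 with DESeq2, 4 without a filter and 0 to 1 when 1 library was left out, IL-15 against IL-7 (1) gave 4, 6 and 0 to 10, and cell states gave 0 to 0. The lowest value for BBA came without CD4+ IL-7 WT replicate 1, BBA replicate 1 or BBA replicate 3. Without WT Tcm IL-7 replicate 2, which left the library that stood apart as the only WT one, the calls were 9 for AAB, 12 for BBA, 10 for IL-15 against IL-7 and 18 for Tcm IL-7. Tem with IL-15 (20) gave 13 to 20, the lowest without AAB Tem NC replicate 2. The ranges when 1 library was left out were 25 to 30 for naive CD8+ IL-7 (28), 22 to 26 for naive IL-15 (26), 21 to 27 for Tcm IL-15 (27), 24 to 29 for CD4+ (26) and 2 to 3 for the retrovirus (2). Over the 5 comparisons other than Tcm IL-7, Jun lost no call in these refits, Fosb lost 42, Nr4a1 31 and Dusp2 21. The cause was not tested. Where a group had 2 libraries, leaving 1 out left it with 1. The share of all genes called is not given for these settings or for the replicate block of the sorted cells below. The counts thus do not show a change particular to the members.

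The replicate numbers were not shown to pair the samples throughout, since the deviations of same-numbered samples correlated over 0.1 in 42 of 48 (genotypes) and 24 of 30 (cultures) CD8+ pairs, and in 12 of 13 and 4 of 6 CD4+ pairs. Between genotypes of NC cells all did, at 0.145 to 0.531 in CD8+ and 0.151 to 0.283 in CD4+ cells. With the number as a replicate block, the calls were 30, 29, 4, 28, 26 and 28 for the 6 cytokine comparisons in the order above with CD4+ last, 5 for AAB against WT, 17 for BBA against WT, 2 for the BBA and WT responses, 4 for cell states and 1 for IL-15 against IL-7. The genotype calls gained were of Egr2, Fosb and Fos in NC cells and of Jund, Jun, Egr1, Egr2 and Nr4a1 with IL-15, and the response calls were of Fos in naive CD8+ IL-7 (edgeR adjusted p = 0.0466) and Jund in Tcm IL-15 (edgeR adjusted p = 0.0316). For the retrovirus, 1 empty vector library carries no number. Pairing by the Xist and Y-linked pattern, chosen after seeing the data, gave a replicate block with 3 calls, Fos, Jun and Dusp2. In that fit 874 of 10419 tested genes were called. Depth limits Fos, Fosb and Egr2 in cytokine cultures, where levels of a few CPM left several genotype comparisons untested.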

Other observations

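In 2 further CD4+ libraries, titled AAB and BBA, the labels conflict about the culture, so they entered no comparison, and their values are given as CPM of the plain total. The library titled AAB held Fos at 318.6, Fosb at 72.2, Jun at 449, Junb at 755, Jund at 482, Egr1 at 167, Egr2 at 21.6, Nr4a1 at 125, Dusp1 at 182 and Dusp2 at 513 CPM. The library titled BBA held Fos at 285.6, Fosb at 49.0, Jun at 385, Junb at 649.9, Jund at 469.5, Egr1 at 207, Egr2 at 30.8, Nr4a1 at 189, Dusp1 at 177 and Dusp2 at 553 CPM.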
